A study of Mus musculus with 8 samples.

Results

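Nr4a1, Nr4a2, Nr4a3, Egr1, Egr2 and Egr3 are transcription factor genes that T cells switch on when their antigen receptor is engaged. They were taken by name from the gene expression features, where they are 6 of 32285 genes. All 6 were measured in every library and passed the filter on low counts in every fit described here.

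Transcripts and guide RNAs were read in the same cells by CROP-seq, a CRISPR screen with single-cell RNA-seq as its readout. The cells were OT-I T cells, CD8+ T cells with a transgenic receptor for ovalbumin, from Cas9 knock-in mice, and each had been transduced with a lentiviral pool of guides against metabolic genes that also carries CD90.1 as a mark. They were transferred into mice with an orthotopic KPC_OVA tumour, a pancreatic ductal adenocarcinoma line that expresses ovalbumin, and CD90.1+ cells were sorted from the primary tumour 7 days later. Recipients received anti-PD-1 (3 libraries) or control IgG (1 library) from the day of transfer. Recipient Rosa26-Cas9 mice were immunocompetent and 6 to 12 weeks old by the study's methods, Cas9 was expressed constitutively, and the labels tie no mouse to a library, so the spread between the anti-PD-1 libraries may be partly technical.

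Engagement of the antigen receptor opens calcium and MAP kinase signalling, which within minutes to hours induces early response genes. The Nr4a proteins are orphan nuclear receptors that act without a known natural ligand, and Nr4a1 is widely used as a reporter of receptor signal strength. Egr1, Egr2 and Egr3 are zinc finger proteins, of which Egr2 and Egr3 also induce inhibitors of receptor signalling, and Nr4a and Egr factors are both known from dysfunctional T cells in tumours.

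The upstream windows of these genes are shown because they hold letters that calcium- and MAP-kinase-responsive factors bind, which places the coexpression described further on beside the genes' own sequence. RefSeq windows of 250 bases before an annotated start (GRCm38.p6) were matched for 4 of the 6 genes, in 8 windows. Capitals mark the cyclic AMP response element (CRE) half-site TGACG on either strand, where CGTCA is the half-site read on the other strand, the EGR motif GCGNGGGCG on either strand, and the serum response element. Each window is printed 5′ to 3′ on the strand of its gene. For Nr4a1 it is chr15:101266596-101266845 (plus strand), for Nr4a2 chr2:57124004-57124253 (minus strand), for Nr4a3 chr4:48045055-48045304 (plus strand) and for Egr2, whose 5 windows begin at different starts, chr10:67537619-67537868 (plus strand).
Nr4a1: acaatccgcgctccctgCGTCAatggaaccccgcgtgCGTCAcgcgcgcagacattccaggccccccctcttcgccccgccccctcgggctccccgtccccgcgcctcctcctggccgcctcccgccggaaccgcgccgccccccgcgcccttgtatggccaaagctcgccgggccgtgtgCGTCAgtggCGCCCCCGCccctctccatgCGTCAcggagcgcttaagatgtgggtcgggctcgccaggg
Nr4a2: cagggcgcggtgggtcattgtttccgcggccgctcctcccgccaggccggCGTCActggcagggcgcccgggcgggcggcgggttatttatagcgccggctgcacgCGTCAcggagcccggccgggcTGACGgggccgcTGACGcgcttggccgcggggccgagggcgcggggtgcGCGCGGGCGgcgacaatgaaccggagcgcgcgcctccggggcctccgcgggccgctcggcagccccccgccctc
Nr4a3: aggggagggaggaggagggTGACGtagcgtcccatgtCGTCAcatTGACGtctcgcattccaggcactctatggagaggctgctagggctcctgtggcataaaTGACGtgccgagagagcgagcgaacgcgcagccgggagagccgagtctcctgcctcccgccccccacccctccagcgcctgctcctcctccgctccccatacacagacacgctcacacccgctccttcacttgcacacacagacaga
Egr2: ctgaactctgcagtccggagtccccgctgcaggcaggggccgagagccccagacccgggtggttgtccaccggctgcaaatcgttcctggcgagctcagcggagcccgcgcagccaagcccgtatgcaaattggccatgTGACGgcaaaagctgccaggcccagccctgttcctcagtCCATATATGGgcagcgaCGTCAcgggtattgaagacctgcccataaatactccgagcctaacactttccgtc

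Each of the 3 Nr4a windows held 4 CRE half-sites. Of 32851 RefSeq windows of the same length, 17.8% held at least 1 half-site, and 45 windows (0.137%) held 4 or more. The cut of 4 is the count seen in these 3 windows, which are themselves among the 45. The Egr2 window held 2 half-sites and a serum response element, a motif found in 1.47% of all windows. Of the other Egr2 windows, chr10:67535249-67535498, which spans the start of the gene body, held no match, chr10:67537316-67537565 held a serum response element without a half-site, and the remaining 2, which overlap the printed window, held the same matches as it. An EGR motif lay in the windows of Nr4a1 and Nr4a2, against 4.7% of all windows. The full element TGACGTCA, found in 1.55% of all windows, was in none of the windows of these genes. No match of one motif overlapped a match of another. These are matches of letters and say nothing of binding in these cells.

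The gene bodies lie at chr15:101254269-101274795 (Nr4a1, ENSMUSG00000023034), chr2:57106830-57124003 (Nr4a2, ENSMUSG00000026826), chr4:48045153-48086447 (Nr4a3, ENSMUSG00000028341), chr10:67535475-67542188 (Egr2, ENSMUSG00000037868) and chr14:70077203-70082614 (Egr3, ENSMUSG00000033730) in GRCm38, and only Nr4a2 is on the minus strand. The identifier of Egr1 is ENSMUSG00000038418. The printed windows of Nr4a1 and Egr2 lie within these gene bodies, and that of Nr4a3 overlaps the start of its gene body.

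After filtering for a single called guide, 23059 cells remained, of which 11495 were from IgG and 2535, 2597 and 6432 from the anti-PD-1 replicates in their order. The median number of UMIs (unique molecular identifiers, which count transcripts) per cell ran from 16829 in anti-PD-1 replicate 1 to 6329 in IgG, so shares of cells with a UMI were also taken after thinning each cell to 3000 UMIs. Shallower cells, 611 of IgG and 36 of anti-PD-1 replicate 3, were left out of the thinned shares, the marker-high groups and co-detection. The libraries shared 3 to 18 cell barcodes per pair. The summed level of 6 CD8 T cell genes was 5825 to 6377 CPM (UMIs scaled to a total of 1e+06), while 7 myeloid genes reached 10.2 to 14.2 CPM, 5 B or plasma cell genes 3.51 to 17.3, 5 tumour epithelial genes 11.0 to 22.9 and 6 fibroblast or endothelial genes 7.09 to 14.98. Among the defining markers, Ms4a1 had no UMI in the 3 anti-PD-1 libraries. The sort held no cell type known to lack the 6 genes, so a background from free RNA was not measured.

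The 6 genes split by family across the libraries. The Nr4a genes were highest in anti-PD-1 replicates 1 and 2 and lowest in IgG, whereas Egr2 and Egr3 were highest in IgG and Egr1 was highest in anti-PD-1 replicate 3. In 5 of the 6, anti-PD-1 replicate 3 lay nearer to IgG than to either of the other anti-PD-1 replicates, and the exception was Nr4a2.

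Nr4a1 stood at 75.5, 70.3 and 42.7 CPM in anti-PD-1 replicates 1, 2 and 3 and at 38.5 CPM in IgG. Replicates 1 and 2 were close together and replicate 3 lay just above IgG. Nr4a2 reached 203, 173 and 150 CPM in the replicates and 122 CPM in IgG, so that replicate 3 lay between replicate 2 and IgG. Nr4a3 was at 55.8, 47.2, 38.9 and 32.6 CPM in the same order, again with replicate 3 in between. In the Egr family the order turned. Egr1 was at 42.8 and 38.7 CPM in replicates 1 and 2, at 82.9 CPM in replicate 3 and at 67.0 CPM in IgG. Egr2 was at 7.80, 8.20 and 24.8 CPM in the replicates and at 28.7 CPM in IgG, so that the third replicate and IgG were each over 3 times as high as the first and second. Egr3 followed with 13.3, 11.8, 25.1 and 27.0 CPM. CPM counts the 3′ ends of transcripts and is used here to compare 1 gene between libraries, not the genes with each other.

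**Figure D1:**
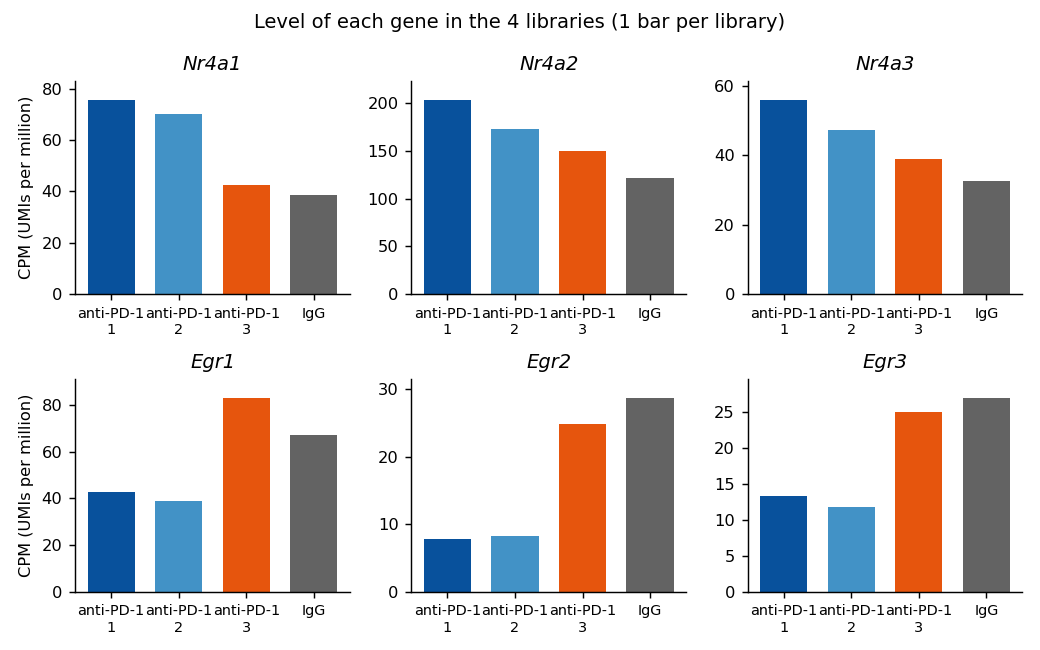
Level of each gene in the 4 libraries, in CPM summed over all retained cells, 1 bar per library and without error bars because each bar is 1 library. The Nr4a genes are highest in anti-PD-1 replicate 1 and lowest in IgG, and the Egr genes are low in anti-PD-1 replicates 1 and 2 and high in replicate 3 and IgG.

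The share of cells with a UMI moved in the same order as the level after thinning to 3000 UMIs. For Nr4a1 it was 19.0% (95% exact interval 17.5 to 20.6), 16.8% (15.4 to 18.3) and 8.15% (7.49 to 8.84) in the anti-PD-1 replicates and 8.05% (7.54 to 8.58) in IgG, against 53.8%, 49.2%, 19.99% and 13.9% before thinning. Egr2 was found in 2.41% (1.85 to 3.08), 2.50% (1.94 to 3.18), 6.08% (5.51 to 6.70) and 7.36% (6.88 to 7.87) of thinned cells in the same order, against 10.1%, 9.78%, 16.9% and 13.4% before thinning. The intervals of replicates 1 and 2 overlapped for both genes and those of replicate 3 and IgG lay apart from them. For the other 4 genes, the lowest and highest thinned shares were 23.5% and 37.2% (Nr4a2), 8.09% and 14.3% (Nr4a3), 10.5% and 15.6% (Egr1), and 3.196% and 6.39% (Egr3). Intervals cover counting error only.

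Whether PD-1 blockade changed these genes was asked by comparing the 3 anti-PD-1 libraries with IgG, and no difference passed the test. The anti-PD-1 mean was 62.8 ± 17.7 CPM for Nr4a1, 175 ± 26.7 for Nr4a2, 47.3 ± 8.43 for Nr4a3, 54.8 ± 24.4 for Egr1, 13.6 ± 9.70 for Egr2 and 16.8 ± 7.28 for Egr3 (SD, n = 3). On the log2 scale the differences between anti-PD-1 and IgG were 0.72 ± 0.35 (SE) for Nr4a1, 0.54 ± 0.20 for Nr4a2, 0.55 ± 0.22 for Nr4a3, -0.28 ± 0.43 for Egr1, -1.06 ± 0.64 for Egr2 and -0.67 ± 0.41 for Egr3, each with an adjusted p of 0.987 (edgeR's quasi-likelihood test, Benjamini-Hochberg over 13810 genes). Of all genes, 0 passed in this test (0.0% higher, 0.0% lower), 282 were at an unadjusted p under 0.05, Nr4a2 among them, and DESeq2 called 3 higher and 2 lower, none of these 6. The outcome rested on anti-PD-1 replicate 3, without which all 6 genes were called, with log2 differences of 0.94 (Nr4a1), 0.64 (Nr4a2), 0.68 (Nr4a3), -0.70 (Egr1), -1.82 (Egr2) and -1.08 (Egr3). In that fit 12.4% of 13327 genes were called higher and 12.5% lower, and its spread came from replicates 1 and 2 alone. The fit of all 4 libraries gave the lone IgG library the spread of the 3 others, and without replicate 1 or 2 no gene of the 6 was called.

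The titles of anti-PD-1 replicates 1 and 2 share a stem. Their guide makeup was also the most alike of any pair of libraries, with a chi-square per degree of freedom of 1.56. It was 3.05 between replicate 3 and IgG and 5.04 to 6.27 in the other pairs. The labels do not say whether replicates 1 and 2 came from separate mice, so they may not be independent. With a term for that title stem, which leaves replicate 3 against IgG, the log2 treatment difference was 0.15 for Nr4a1, 0.29 for Nr4a2, 0.25 for Nr4a3, 0.30 for Egr1, -0.21 for Egr2 and -0.11 for Egr3. No gene of the 6 was called there, while 158 of all genes were higher and 125 lower, and Egr1 changed sign. That fit sets 1 library against 1 and takes its spread from replicates 1 and 2 alone, so its calls compare these libraries and not the treatments. By its methods, the study corrected these data for a batch effect between 2 batches. It does not say which library belonged to which, so a batch and these differences between libraries cannot be told apart.

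Other genes of the pathway also differed between replicates 1 and 2 on one side and replicate 3 and IgG on the other. No label joins replicate 3 to IgG, so this was not tested, and the genes named here were chosen after their values were seen. Fos, a subunit of the AP-1 factor, was at 80.9 and 82.7 CPM in replicates 1 and 2, at 18.4 CPM in replicate 3 and at 19.0 CPM in IgG. Dusp1, a MAP kinase phosphatase, stood in that order at 115, 116, 11.9 and 12.7 CPM, and Tnfaip3, an inhibitor of NF-kappaB signalling, at 235, 208, 42.1 and 37.7 CPM. Ctla4, an inhibitory receptor, was at 349, 331, 133 and 105 CPM. In these genes, as in Nr4a1, replicates 1 and 2 were the high libraries. The opposite order, that of the Egr genes, was seen in Nab2, a corepressor that binds Egr proteins, at 21.2, 20.7, 34.5 and 36.2 CPM, and in Tnf at 9.11, 9.55, 32.0 and 26.7 CPM.

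Summed over each list, 6 of 8 pathway lists were highest in replicates 1 and 2. The 10 AP-1 and other early factors summed to 2371, 2384, 1633 and 1546 CPM in the 3 replicates and IgG, and the 15 feedback inhibitors to 1694, 1626, 1023 and 1043 CPM. The 10 NFAT, NF-kappaB and IRF factors summed to 967, 895, 712 and 698 CPM, and the 10 activation surface receptors to 1971, 1965, 1687 and 1550 CPM. Induced cytokines, 10 in all, summed to 8127, 9825, 7722 and 6672 CPM, and the 3 genes of the Egr partner list to 112, 104, 93.3 and 99.5 CPM. In the other 2 lists replicate 3 was highest. The 8 TOX factors and inhibitory receptors summed to 962, 929, 1132 and 931 CPM. The 10 genes of the T cell receptor chain and its proximal kinases summed to 4179, 4299, 4995 and 4600 CPM. Such sums are carried by the most abundant genes of a list. The heat shock and dissociation genes, 12 in all, summed to 3858 and 3897 CPM in replicates 1 and 2 and to 3212 and 3387 CPM in replicate 3 and IgG, and their part in these differences was not tested.

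Cell states were read next, from marker lists that hold none of the 6 genes. For each of 8 states, the 10% of the cells of each library with the highest marker score were compared with the other cells of the same library, and the markers of that state were left out of its fit. These groups are the ends of a continuous score and not cell types. Of the 48 pairs of a gene and a state, 31 passed the test, 12 higher and 19 lower in the marker-high cells. Of all genes tested, 1.57% (interferon response) to 22.4% (cytokine) were higher per state and 0.74% to 21.2% lower.

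**Figure D2:**
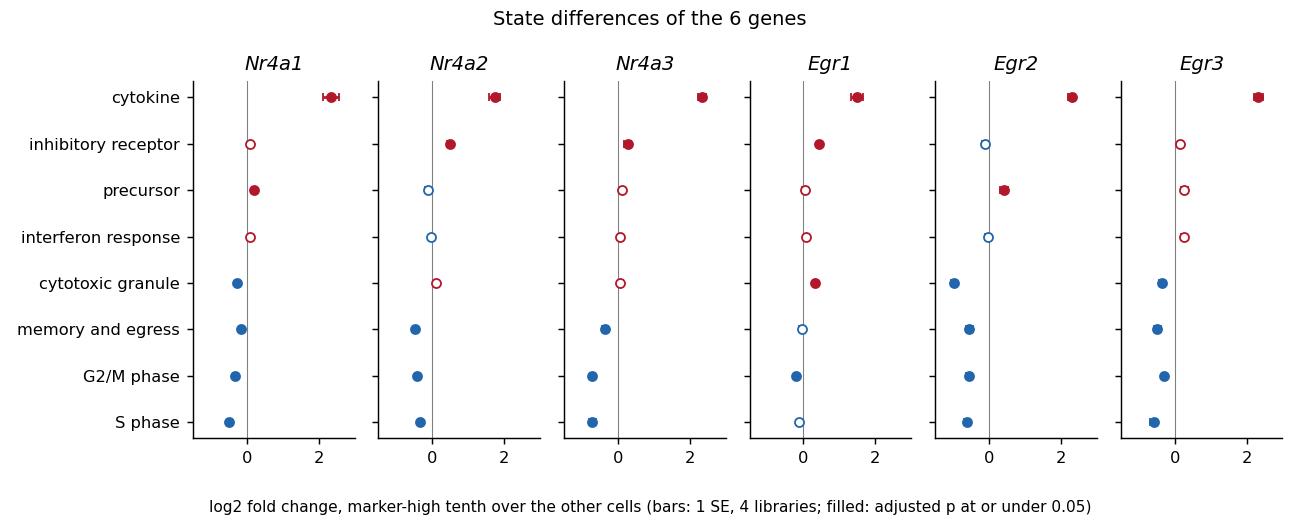
Log2 fold change of each gene between the marker-high 10% of the cells and the other cells (x axis) in 8 states (y axis), from edgeR with the library as a block over 4 libraries, with bars of 1 SE and filled points where the adjusted p was at or under 0.05. The cytokine state stands apart with log2 differences of 1.49 to 2.34, and S and G2/M phase lie at or below 0 in every panel.

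High expression of cytokine genes (Ifng, Tnf, Ccl3, Ccl4 and Xcl1) went with high levels of every one of the 6 genes. Nr4a1 was at 185, 147, 198 and 172 CPM in cytokine-high cells of anti-PD-1 replicates 1, 2, 3 and IgG and at 62.6, 61.2, 24.0 and 22.8 CPM in the other cells. Nr4a3 was at 163, 128, 156 and 122 CPM against 43.1, 37.6, 24.8 and 21.7 CPM. In both genes the lowest cytokine-high value exceeded the highest value of the other cells. The same held for Nr4a2, with 403, 312, 490 and 377 CPM against 180, 157, 109 and 91.6 CPM.

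The Egr genes rose too. Egr1 was at 79.3, 43.9, 243 and 173 CPM in cytokine-high cells and at 38.5, 38.1, 63.6 and 53.7 CPM in the others, so that the groups overlapped across libraries and replicate 2 showed little difference. Egr2 was at 24.2, 20.3, 94.1 and 91.0 CPM against 5.86, 6.76, 16.5 and 21.4 CPM, higher within each library although the other cells of IgG exceeded the cytokine-high cells of replicate 2. Egr3 was at 44.0, 25.4, 101 and 87.9 CPM against 9.69, 10.2, 16.0 and 19.5 CPM, with no overlap.

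Fitted with the library as a block, the rise was 5.06-fold for Nr4a1 (log2 2.34 ± 0.22, adjusted p = 4.48e-07), 3.32-fold for Nr4a2 (1.73 ± 0.14, adjusted p = 1.15e-07), 5.08-fold for Nr4a3 (2.35 ± 0.11, adjusted p = 2.35e-10), 2.81-fold for Egr1 (1.49 ± 0.17, adjusted p = 3.81e-06), 4.90-fold for Egr2 (2.29 ± 0.09, adjusted p = 1.14e-10) and 5.02-fold for Egr3 (2.33 ± 0.13, adjusted p = 1.42e-09), all by edgeR's test. In this comparison 22.4% of 12428 genes were higher and 21.2% lower. The median UMI count of the cytokine-high cells was 18131, 18071, 12877 and 6820, against 16741, 16143, 11991 and 6477 in the other cells. The 12 heat shock and dissociation genes were also higher in cytokine-high cells of every library (4444 against 3789 CPM, 4611 against 3812, 3688 against 3155 and 3989 against 3321), and their part in the difference was not tested. Between 112 and 471 cells per library lay within 10% of the score that bounds the cytokine-high group.

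**Figure D3:**
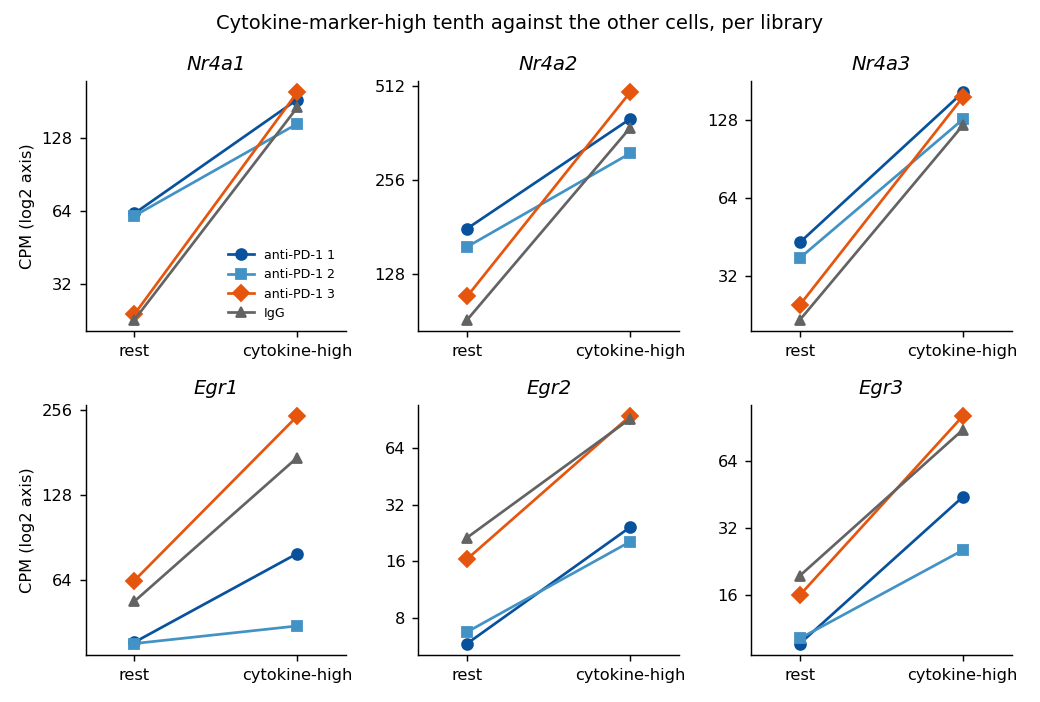
Level of each gene (CPM on a log2 axis) in the other cells and in the cytokine-high 10% of the cells, with 1 line per library. In the upper panels the lines lie closer together in cytokine-high cells than in the others. Nr4a1 is at 62.6 and 61.2 CPM against 24.0 and 22.8 CPM in the other cells and at 147 to 198 CPM in cytokine-high cells. Nr4a2 still runs from 312 to 490 CPM in cytokine-high cells. The Egr lines stay apart at both ends.

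The libraries differed in another way in the cytokine-high cells than in the others, which is described here without a test. In cells outside the cytokine-high group, each Nr4a gene was higher in replicates 1 and 2 than in replicate 3 and IgG. In cytokine-high cells, replicate 3 had the highest level of Nr4a1 and Nr4a2, and replicate 1 the highest of Nr4a3. Egr1, Egr2 and Egr3 were lower in replicates 1 and 2 than in replicate 3 and IgG in both kinds of cells.

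Among pathway lists, the cytokine-high cells were raised broadly. The fourth Egr gene, Egr4, was at 2.39 on the log2 scale and Nab2 at 0.69, so that 2 of 3 genes of the Egr partner list were higher. Egr4 was near the floor, at 0.282 to 0.519 CPM over the libraries, and Fosl1, named next, was at 0.949 to 1.14 CPM. AP-1 and other early factors were higher in 8 of 10 and lower in 0, led by Fosl1 (2.99), the stress-induced factor Atf3 (1.80) and Myc (1.62). Factors of the NFAT, NF-kappaB and IRF list were higher in 8 of 10 and lower in 1, with Nfkbid at 2.28, the NF-kappaB subunit Rel at 1.53 and Irf8 at 1.39. Of 15 feedback inhibitors 8 were higher and 1 lower, and Spry1 (2.20), Spred1 (1.05), both inhibitors of the Ras pathway, and the phosphatase Dusp4 (0.84) led. The medians of these 4 lists were 0.69, 0.67, 0.62 and 0.20, beside -0.03 over all genes tested.

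Surface receptors of activation were higher in 8 of 10, led by Il2ra (1.19), Tnfrsf4 (0.98) and Cd160 (0.90), and none was lower. All 5 induced cytokines that had not served as markers were higher, among them Il2 (3.54), Tnfsf14 (3.1) and Csf2 (3.01). Csf2 was sparse, at 0.519 to 3.57 CPM over the libraries. TOX factors and inhibitory receptors were higher in 5 of 8 and lower in 1, with Havcr2, the inhibitory receptor TIM-3, at 0.76, Tox4 at 0.32 and Entpd1 at -0.26. In the T cell receptor chain list 5 of 10 were higher and 2 lower, and Lcp2 (0.61), the kinase Zap70 (0.48) and the adaptor Lat (0.44) led. The medians were 0.43, 3.01, 0.16 and 0.10.

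A high inhibitory receptor score (Pdcd1, Havcr2, Lag3, Tigit and Entpd1) went with only some of the genes. Nr4a2 was at 237, 204, 249 and 178 CPM in those cells and at 200, 171, 140 and 116 CPM in the others, a log2 difference of 0.49 ± 0.07 (edgeR, adjusted p = 4.08e-05). Egr1 was at 53.0, 52.8, 108 and 91.1 CPM against 41.7, 37.4, 80.5 and 64.0 CPM, higher in every library (0.43 ± 0.05, adjusted p = 1.78e-06). Nr4a3 passed with 0.27 ± 0.09 (adjusted p = 0.0279), but it was higher in replicate 3 (58.2 against 37.0 CPM), IgG (40.3 against 31.5 CPM) and, by little, replicate 1 and lower in replicate 2, and the call ended without replicate 3 (0.10, adjusted p = 0.407), without IgG (0.24, adjusted p = 0.136) and with DESeq2 (adjusted p = 0.108). The differences of Nr4a1 (0.09 ± 0.05), Egr2 (-0.12 ± 0.08) and Egr3 (0.16 ± 0.07) did not pass. With nontargeting cells alone none of the 6 passed, in a fit of fewer cells where 301 of 9810 genes were higher and 425 lower. Of 12510 genes, 12.6% were higher and 14.8% lower in this comparison, and 9 of 10 genes of the T cell receptor chain list and 6 of 10 activation surface receptors were higher, Ctla4 (0.70) and Icos (0.62) among the latter. The largest change of the surface receptors was in the other direction, in Cd83 (-1.41 ± 0.30, adjusted p = 0.0016), the 1 gene of that list that was lower.

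Cells with a high cytotoxic granule score (Gzma, Gzmb, Gzmc, Gzmf and Prf1) parted the Egr genes. Egr2 was at 4.10, 5.05, 14.0 and 12.8 CPM in granule-high cells and at 8.26, 8.59, 26.1 and 30.6 CPM in the others, lower in every library by a log2 difference of -0.97 ± 0.09 (edgeR, adjusted p = 1.46e-06). Egr3 was lower as well (-0.35 ± 0.07, adjusted p = 0.00216), as was Nr4a1 (-0.27 ± 0.07, adjusted p = 0.012). Egr1, in contrast, was at 47.6, 44.9, 102 and 74.9 CPM against 42.2, 37.9, 80.5 and 65.3 CPM, higher in every library (0.31 ± 0.05, adjusted p = 0.000389). Nr4a2 (0.10 ± 0.05) and Nr4a3 (0.07 ± 0.07) did not pass. Over all 12378 genes, 10.7% were higher and 8.9% lower.

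In the 2685 cells with a nontargeting guide alone, the difference of Egr2 in granule-high cells was -0.23 (adjusted p = 0.7), Egr3 turned to 0.34 without passing, and Egr1 still passed. The call of Nr4a1 ended there too (adjusted p = 0.284), as it did without replicate 3 (adjusted p = 0.0679) and without IgG (adjusted p = 0.0843). Other early response genes were also split in granule-high cells, with Fos (-0.52) and Fosb (-0.37) lower and Jun (0.42) higher. Of 10 induced cytokines 5 were higher and 4 lower, among them Il10 (2.53), Csf2 (1.68) and Xcl1 (-1.57), and of the TOX factors and inhibitory receptors 3 of 8 were higher and 2 lower, with Entpd1 at 0.975, Havcr2 at 0.77 and Tox, a factor of chronic stimulation, at -0.87.

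Memory and egress markers (Klf2, S1pr1, S1pr4 and Il7r among them) went with low levels of 5 of the 6 genes. Nr4a2 was at 153, 145, 101 and 89.4 CPM against 208, 176, 154 and 125 CPM in the other cells, lower in every library (log2 difference -0.49 ± 0.05, edgeR, adjusted p = 8.38e-07). Egr2 (-0.55 ± 0.10, adjusted p = 0.000405), Egr3 (-0.48 ± 0.09, adjusted p = 0.000943) and Nr4a3 (-0.36 ± 0.07, adjusted p = 0.00105) were lower in every library too. Nr4a1 fell by 0.16 on the log2 scale (adjusted p = 0.0398), a call that DESeq2's test or size factors, thinning and leaving out replicate 1, replicate 3 or IgG ended (adjusted p = 0.0583 to 0.205), and Egr1 was at -0.05 ± 0.06. With nontargeting cells alone, only Nr4a2 passed, in a fit where 138 of 9916 genes were higher and 99 lower. Between 24.9% and 27.0% of the cells of a library had a UMI of any of these markers, and 47 to 118 cells of the anti-PD-1 libraries and 856 of IgG, where the group held 1088, were tied at the boundary and ordered at random. The background was 10.9% higher and 13.4% lower of 12576 genes, and 8 of 10 induced cytokines and 6 of 10 activation surface receptors were lower with the 5 genes. In the opposite direction, Csf2 was the 1 cytokine that was higher (1.47 ± 0.37, adjusted p = 0.00635), 2 surface receptors were higher, and of the 10 early factors 2 were higher, Fos (0.375) among them, and 2 lower.

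Precursor markers (Tcf7, Slamf6, Id3, Lef1 and Ccr7), which mark less differentiated cells, went with modest rises of Egr2 and Nr4a1. Egr2 was at 11.4, 17.6, 28.4 and 34.0 CPM in precursor-high cells and at 7.43, 7.39, 24.4 and 28.2 CPM in the others, higher in every library by 0.42 ± 0.12 (edgeR, adjusted p = 0.0193). Nr4a1 was higher in every library by 0.21 ± 0.06 (adjusted p = 0.0233). Neither call was firm, since Egr2 missed the threshold with thinned counts (0.22, adjusted p = 0.275), with nontargeting cells alone (0.79, adjusted p = 0.0569) and without replicate 1 (adjusted p = 0.0624). Nr4a1 missed it with DESeq2 (adjusted p = 0.0529), without replicate 2 (adjusted p = 0.0774) and without IgG (adjusted p = 0.125). Nr4a2 (-0.13), Nr4a3 (0.11), Egr1 (0.04) and Egr3 (0.27) did not pass, and 9.95% of 12507 genes were higher and 10.2% lower. In these cells 6 of 10 induced cytokines were lower, Ccl3 (-1.15) and Ifng (-0.88) among them, as were 6 of 8 TOX factors and inhibitory receptors, and 1 gene of each list was higher. Of the 10 early factors, 3 were higher, Fos (0.41) among them, and 1 was lower. Only 19.1% to 29.2% of the cells of a library had a UMI of any precursor marker, and 116 to 432 cells were tied at the boundary and ordered at random.

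In cells with high cell cycle scores, most of the 6 genes took a smaller share of the UMIs. With S phase markers high, Nr4a3 was at 47.7, 24.8, 22.8 and 19.6 CPM against 56.9, 50.3, 41.3 and 34.0 CPM, lower in every library by a log2 difference of -0.71 ± 0.09 (edgeR, adjusted p = 2.37e-05). Egr2 (-0.62), Egr3 (-0.58), Nr4a1 (-0.48) and Nr4a2 (-0.34) were lower too, with adjusted p-values from 9.35e-06 to 0.000264, and Egr1 at -0.12 missed the threshold (adjusted p = 0.0716). With G2/M markers high all 6 genes were lower, from -0.72 in Nr4a3 to -0.22 in Egr1 (adjusted p = 7.95e-08 to 0.00251). With nontargeting cells alone, the G2/M calls of Egr3 (-0.02, adjusted p = 0.97) and Egr1 (-0.03, adjusted p = 0.927) and the S phase call of Egr3 (-0.48, adjusted p = 0.147) ended, and with the highest 20% of cells the G2/M calls of Nr4a1 (adjusted p = 0.0999) and Egr1 (adjusted p = 0.081) did. In the S phase comparison 18.7% of 12398 genes were higher and 17.8% lower, and in the G2/M comparison 20.7% of 12392 were higher and 20.9% lower. The lists moved along in S phase, with 0 genes higher and 6 of 10 early factors, 8 of 10 NFAT, NF-kappaB and IRF factors, 12 of 15 feedback inhibitors, 9 of 10 activation surface receptors and 8 of 10 induced cytokines lower. Of the 10 early factors, 9 were lower and 1 higher in the G2/M comparison, where 9 of 10 induced cytokines were lower. The Egr partner list parted there, with Nab2 (0.22) and Nab1 (0.16) higher and Egr4 (-1.7) lower. CPM is a share of UMIs and not a number per cell, and cells in these groups were deeper, with medians of 8644 to 20703 UMIs in S-phase-high cells against 6321 to 16417 in the others.

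An interferon response score (Isg15, Ifit1, Ifit3, Rsad2 and Usp18) separated none of the genes. By edgeR 0 of the 6 were called, Egr3 alone was at an unadjusted p under 0.05 (0.26 ± 0.09), and 1.57% of 12560 genes were higher and 0.74% lower. The markers were sparse, with a UMI in 3.83% to 7.02% of the cells of a library, so part of the 10% was chosen at random from cells without any, 29.8% of the group in replicate 3 and 60.9% to 61.8% in the other libraries. Comparing only the cells with a marker UMI with the others, an alternative added after the data were seen, called Egr1 (0.22, adjusted p = 0.016) and Egr3 (0.29, adjusted p = 0.0314). The shares of all genes given above are those of the main comparison, so these calls stand without a background of their own.

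Each cell could carry several of the 6 transcripts, and their number tracked the cytokine score. After thinning to 3000 UMIs, 56.2%, 51.4% and 41.0% of cells held at least 1 of the 6 in the anti-PD-1 libraries, and 41.8% did so in IgG, and 49, 37, 174 and 268 cells held 4 or more, a share of 1.93%, 1.42%, 2.72% and 2.46%. Of cells with none, the cytokine-high share was 3.06%, 5.71%, 2.20% and 2.81%. Of cells with 4 or more, it was 40.8% (95% exact interval 27.0 to 55.8), 54.1% (36.9 to 70.5), 65.5% (57.9 to 72.5) and 60.4% (54.3 to 66.3). With cells of 4 or more genes pooled, the share was higher at each further gene in every library, whereas in replicate 1 it was 34.3% at 3 genes and 30.6% at exactly 4. The intervals of cells with none and with 4 or more did not overlap. Cells share a library, so these intervals cover counting error within it only.

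**Figure D4:**
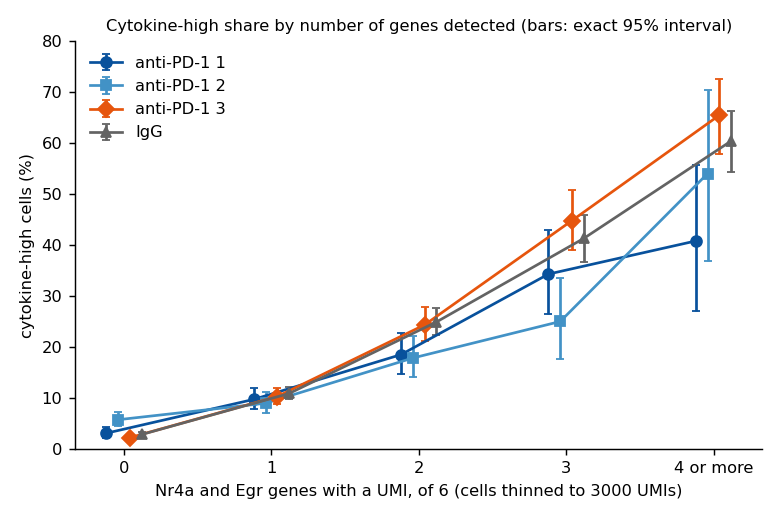
Share of cells in the cytokine-high 10% (y axis, percent) by how many of the 6 genes had a UMI in the thinned cell (x axis), with exact 95% intervals and 1 line per library. From cells with none to cells with 4 or more, the share climbs from 2.20% to 5.71% up to 40.8% to 65.5%.

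Detection of a pair of the genes in the same cell was tied in every library. The log2 odds ratio, which is 0 when detection of one gene is unrelated to the other, was above 0 in 60 of 60 combinations of 15 pairs and 4 libraries, with a mean of 1.74 and library means of 1.42, 1.51, 2.17 and 1.86. Egr2 and Egr3 had the highest mean, 2.22. In IgG, Egr3 was found in 17.7% of cells with Egr2 and in 5.48% of cells without it, and in replicate 3 in 22.9% and 4.34%. At the other end, Nr4a3 and Egr1 had a mean of 0.98, and in replicate 2 Egr1 was found in 13.0% of cells with Nr4a3 and in 10.2% of cells without it. Means were 1.88 over the 3 pairs within the Nr4a family, 2.05 over the 3 pairs within the Egr family and 1.58 over the 9 pairs between families, ranges that overlapped. Across thinning depths, nontargeting cells alone and cells outside the highest S and G2/M scores, the mean ran from 1.58 to 1.84. These values describe cells that share libraries and depth, and no test was made. Droplets that held a pair of cells were removed only through the limits on guides and UMIs, and their part in co-detection was not tested.

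**Figure D5:**
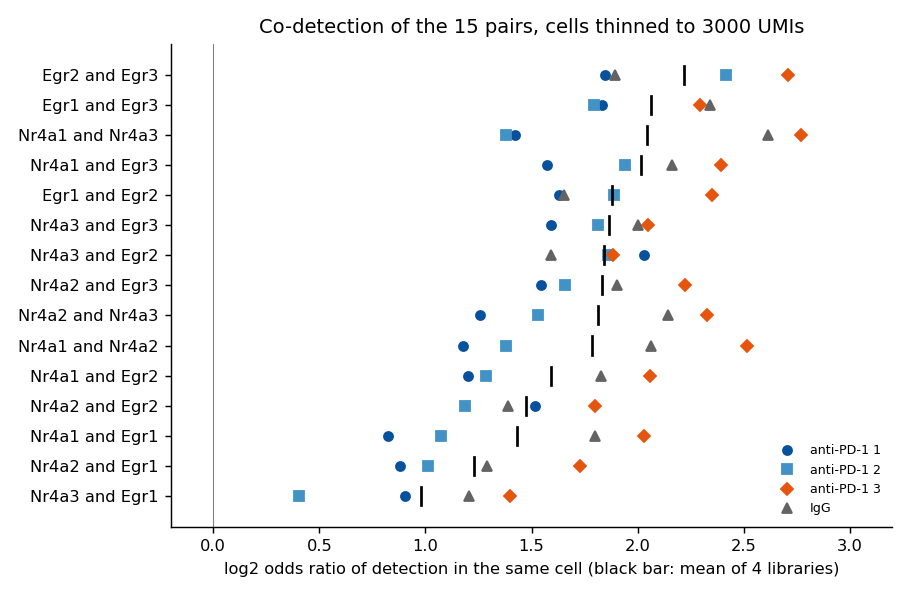
Log2 odds ratio that 2 genes are detected in the same cell (x axis) for the 15 pairs (y axis), in cells thinned to 3000 UMIs, with 1 symbol per library and a black bar for the mean of 4 libraries. Every symbol lies above 0, from 0.40 for Nr4a3 and Egr1 in anti-PD-1 replicate 2 to 2.77 for Nr4a1 and Nr4a3 in replicate 3.

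The 6 genes apart, chemokine transcripts were among those most like them across cells. Among 5079 other genes with a UMI in at least 5% of thinned cells of every library, Ccl4, an inflammatory chemokine, ranked first for each of the 6, with mean Pearson r from 0.18 (Egr2) to 0.37 (Nr4a2) over the 4 libraries. For the summed Nr4a genes, Ccl4 had a mean r of 0.45, followed by Ccl3 (0.40), Ifng (0.26), Zfp36l1 (0.23), Rel (0.22), Kdm6b (0.21), Xcl1 (0.20), Irf8 (0.20), Orai1 (0.20), Rgcc (0.19), Rilpl2 (0.19) and Crtam (0.18). Zfp36l1 encodes an RNA-binding protein that destabilises AU-rich transcripts, Kdm6b a histone demethylase and Orai1 the pore of the calcium channel that opens after receptor engagement. For the summed Egr genes the order was Ccl4 (0.30), Ccl3 (0.25), Zfp36l1 (0.22), Ifng (0.16), Rilpl2 (0.14), Rel (0.13), Junb (0.12), Tagap (0.11), Kdm6b (0.11), Ier2 (0.11), Rgs16 (0.10) and Btg2 (0.10).

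The members themselves were left out of these rankings, and some were as like, with a mean r of 0.27 between Nr4a1 and Nr4a2 and of 0.26 between Nr4a2 and Nr4a3. Of the next most like other genes, Ccl3, Ifng, Kdm6b and Zfp36l1 followed Ccl4 for Nr4a1, and Ccl3, Zfp36l1, Ifng and Rel for Nr4a2. Nr4a3 had Ccl3, Ifng, Kdm6b and Rel, Egr1 had Ccl3, Zfp36l1, Ifng and Junb, and Egr3 had Zfp36l1, Ccl3, Rilpl2 and Kdm6b. Egr2 differed by Xcl1 (0.17) and Crtam (0.15) in its list, after Ccl3 and before Zfp36l1. At the low end for the summed Nr4a genes stood AW112010 (-0.16). Correlations in anti-PD-1 replicates 1 and 2 were lower for Egr1 with Ccl4 (0.11 and 0.12) than in replicate 3 and IgG (0.36 and 0.30). All points are cells that share a library and a depth of 3000 UMIs, r is low in sparse counts, and no p is given.

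Which metabolic knockouts moved the 6 genes was asked with 82 targets against cells with a nontargeting guide, and none did so past the threshold. As a check of the guides, the targeted gene's own transcript could be tested for 44 of the 82 targets and was below nontargeting cells in 36, of which 7 passed, with a median log2 difference of -0.39; a cut in the genome need not lower a transcript. By edgeR, adjusted over 818360 pairs of a gene and a target, 0 of 492 member and target pairs were called, with 27 (5.49%) at an unadjusted p under 0.05 against 4.47% of all pairs. Over all genes, 336 pairs were higher (0.0411%) and 57 lower (0.00697%). The median standard error of a log2 difference was 0.20 for Nr4a2, 0.25 for Egr1, 0.27 for Nr4a1, 0.28 for Nr4a3, 0.32 for Egr2 and 0.40 for Egr3, which sets the size of change these sums could show.

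The pair with the smallest p of each gene is given as a value. For Nr4a3 it was Pik3r1, a regulatory subunit of PI3 kinase, at a log2 difference of -1.23 ± 0.43 (adjusted p = 0.874), with 37.4, 5.11, 4.81 and 18.1 CPM in Pik3r1 cells and 56.4, 43.1, 41.6 and 30.7 CPM in nontargeting cells of anti-PD-1 replicates 1, 2, 3 and IgG. That is lower in 4 of 4 libraries, but from a single guide in 108 cells and 1 to 18 UMIs per library. For Nr4a1 it was Slc9a8, a sodium and proton exchanger, at 0.72 ± 0.24 (adjusted p = 0.783), with 107, 113, 86.2 and 51.7 CPM against 73.2, 66.5, 42.4 and 36.6 CPM, higher in 4 of 4 libraries. Its guides differed, with mean log2 ratios of -0.73, 0.04 and 1.35, and with at least 5 UMIs of the called guide the difference was -0.75. Slc9a8 was also the pair of Egr2 (0.68 ± 0.29, adjusted p = 1), which went to -0.11 in the same way.

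For Egr1 the smallest p was with Pigw, an enzyme of GPI anchor synthesis, at 0.99 ± 0.33 (adjusted p = 0.794) in 51 cells of 3 libraries. For Egr3 it was Lhx5, a homeobox factor, at -1.35 ± 0.52 (adjusted p = 0.997), from 3, 0, 1 and 19 UMIs in the 4 libraries. For Nr4a2 it was Aspa, an aspartoacylase, at 0.45 ± 0.19 (adjusted p = 1), higher in 3 of 4 libraries. None of these 6 pairs is a call.

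In the pathway lists 14 pairs were called, all higher. The AP-1 list held Fosl2 with Pik3cd (0.80 ± 0.15) and Atf3 with Pla2g4a (3.04 ± 0.37). Batf3 was called with Pigp (5.16 ± 0.86), Pik3r1 (3.42 ± 0.66), Pla2g4a (2.79 ± 0.57), Rdh12 (2.65 ± 0.58) and Tgds (2.14 ± 0.49). Ctla4 (0.86 ± 0.16) and Icos (1.02 ± 0.16) were higher with Pik3cd, the catalytic PI3 kinase subunit p110 delta. Among induced cytokines, Il2 was called with Cops8 (4.83 ± 0.40), Pla2g4b (2.73 ± 0.54) and Mtm1 (2.33 ± 0.51), Il10 with Pi4k2b (3.22 ± 0.55) and Tnf with Slc9a8 (1.86 ± 0.28). Several of these genes were sparse over the libraries, with Batf3 at 2.78 to 6.43 CPM, Il2 at 3.01 to 9.40 and Atf3 at most 5.33. Il10 was at 2.96 to 16.2 CPM. The Batf3 call with Pigp rested on 44 cells of 2 libraries and that with Pik3r1 on 108 cells of a single guide. The other pairs rested on 145 to 499 cells. Values by library and guide are not given for these pairs, and whether a few cells carried the calls was not tested. In the 499 Pik3cd cells, the 6 genes were at -0.01 ± 0.24 (Nr4a1), 0.10 ± 0.18 (Nr4a2), -0.22 ± 0.25 (Nr4a3), 0.26 ± 0.21 (Egr1), 0.41 ± 0.24 (Egr2) and 0.07 ± 0.32 (Egr3). The other 4 lists held no called pair.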

How the data were processed

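The files deposited are sparse matrices of UMI counts, neither scaled nor filtered by gene, from 4 expression and 4 guide libraries (10x 3′ v3.1), which the authors had aligned to mm10 and counted with Cell Ranger 3.1.0. The submitters' processing notes also name Seurat and R 3.6.3. Cells with exactly 1 called guide were kept if log10 UMIs differed from their library's median by at most 3 median absolute deviations and at most 10% of UMIs were mitochondrial. Doublets were addressed only by these limits on guides and UMIs, and no doublet caller was run.

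Counts were summed over cells per library (treatment), per library and marker-high group with the library as a block (states), or per target and library with at least 10 cells and the library as a block (knockouts). These sums rest on 48821477, 48182760 and 88543446 UMIs of retained cells for the anti-PD-1 libraries in order and 82120349 for IgG, out of 142945121 to 155974184 per library over all barcodes. Sums were tested with edgeR 4.0.16 (quasi-likelihood, filterByExpr, TMM) and Benjamini-Hochberg adjustment over all genes tested, at 0.05. Errors after log2 differences are standard errors derived from the test, as the absolute log2 difference divided by the square root of its F statistic. DESeq2 1.42.0 was an alternative. In the knockout alternatives only the 6 genes were refitted, and a pair counted as called at the unadjusted p that the adjusted threshold reached over all pairs (2.4e-05). Marker scores were means of log1p UMIs of thinned cells, each marker scaled by its SD. Scripts were tested on simulated counts.

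Named genes followed a written rule, namely the 12 genes most like each summed family, the 5 most like each member, up to 3 called genes of each pathway list with the largest change, and the smallest-p target of each member. Some genes of the lists are not reported here by name. The called knockout pairs of the pathway lists and the pathway genes given by library were named after their values were seen. The members and lists were chosen with earlier results of these data known. Shares have exact Clopper-Pearson 95% intervals. Coordinates are from GENCODE for GRCm38, and motifs were searched in RefSeq windows. Python 3.11.15, numpy 2.4.6, scipy 1.17.1, pandas 2.3.3 and R 4.3.3 were used.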

Additional observations from a re-analysis of the deposited data

Results flagged for a closer look

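In the comparison of interferon-high with the other cells, in which neither Nr4a1 nor Nr4a3 passed edgeR's test (adjusted p = 0.49 and 0.691), their ratios had one sign in every anti-PD-1 library and the other in IgG. For Nr4a1 the log2 ratio was -0.11 in IgG and 0.04 to 0.26 in the anti-PD-1 replicates. For Nr4a3 the ratio was -0.13 in IgG and 0.09 to 0.18 in the anti-PD-1 replicates. The shares of thinned cells did not all follow, with Nr4a1 in 7.81% of interferon-high and 8.18% of other cells of replicate 3, and Nr4a3 in 8.36% and 8.05% in IgG and in 11.9% and 12.2% in replicate 2. The difference between treatments was not tested, since IgG is a lone library, and 60.9% to 61.8% of the interferon-high cells of IgG and of anti-PD-1 replicates 1 and 2, and 29.8% of those of replicate 3, had no UMI of an interferon marker.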

How the results depend on the processing

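The 6 genes were called in cytokine-high cells under every alternative run for that state. Of 486 state values under alternatives, 429 kept their direction and side of the threshold, 30 fell below it, 15 passed it and 12 changed sign. The count of 31 called pairs ran from 27 to 32 on leaving out a library, was 17 with nontargeting cells only, and lay between 28 and 34 otherwise. Nontargeting cells are few, and fewer of all genes passed with them. In the precursor comparison 149 of 9921 were higher and 76 lower, against 1245 and 1271 of 12507 with all cells. Treatment calls ran from 0 to 6 on leaving out a library, 6 only without anti-PD-1 replicate 3, where 12.4% of all genes were called higher and 12.5% lower, and were 0 otherwise. In knockouts no pair was called under any alternative. Co-detection kept its sign in all means (1.59 to 1.84 on leaving out a library), although 57 of 60 values were above 0 at 1500 UMIs and 58 of 60 with nontargeting cells.

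The following changed sign, all of them without a call in that setting, and the cause was not tested. Egr1 by treatment was 0.30 with a term for the shared title stem. With nontargeting cells only, Nr4a2 was 0.02 in precursor-high cells, Nr4a3 -0.29 in inhibitory-receptor-high cells, Nr4a3 -0.02 and Egr3 0.34 in granule-high cells, and Nr4a2 0.00065, Nr4a3 -0.05 and Egr1 -0.15 in interferon-high cells. Egr1 in precursor-high cells ran from -0.05 (without anti-PD-1 replicate 2) to 0.16 (without replicate 3) on leaving out a library. In the interferon comparison Nr4a2 was 0.04 with the highest 20% of cells and 0.06 with any marker UMI, and Egr2 was 0.05 with any marker UMI and ran from -0.08 (without anti-PD-1 replicate 2) to 0.0029 (without replicate 3) on leaving out a library. With at least 5 guide UMIs, Slc9a8 gave -0.75 for Nr4a1 and -0.11 for Egr2.

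No paired analysis was possible because IgG has 1 library and the replicate numbers do not pair the treatments. Few cells per knockout and a lone IgG library limit these tests, and in the knockout fits the errors were widest for Egr3 and Egr2, the genes with the fewest UMIs.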
